A study of Mus musculus with 64 samples.

Results

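The genes described here encode the enzymes with which mouse tissue modifies drugs, plant compounds, steroids and other fat-soluble molecules. They were taken by symbol from 5 enzyme groups, namely the cytochrome P450 families Cyp1, Cyp2 and Cyp3, the UDP-glucuronosyltransferases (Ugt1 and Ugt2), the sulfotransferases (Sult) and the alpha, mu and pi glutathione S-transferases (Gsta, Gstm, Gstp). Cyp1a2, Cyp2e1 and Cyp2f2 were not part of the set. Of 107 genes with a matching symbol, 77 had a mean above 1 CPM over the liver libraries, out of 36332 gene IDs in all. CPM is the deposited expression value of a gene, named after the file header, and follows the number of reads. The lowest members by mean liver level were Ugt1a7c at 1.08 CPM and Cyp2s1 at 1.30 CPM, and the genes just left out were Cyp2d12 at 0.901 CPM and Sult3a2 at 0.828 CPM. Cyp1a1, the classic target of the dioxin receptor, lay at 0.492 CPM and was not a member.

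RNA was sequenced from the liver, omental fat and skeletal muscle of mice that had lost Myc, a transcription factor of cell growth, and of mice with Myc intact, at 5 and at 20 months of age. Knockout (KO) mice were B6.129 animals in which a tamoxifen-activated Cre, expressed from the Gt(ROSA)26Sor locus as cre/ERT2, was combined with floxed Myc alleles. Wild-type (WT) mice were C57/B6. Every mouse of both genotypes had tamoxifen at 75 mg/kg in corn oil, injected into the peritoneum daily for 5 days around weaning once it had reached 15 g. The controls therefore share the drug but not the Cre or the mixed background, so strain and loss of Myc cannot be told apart. For liver and for omental fat the young mice gave 6 libraries of either genotype and the old mice 5 of either. For muscle the young mice gave 4 KO and 6 WT libraries, and the old mice again 5 of either genotype.

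Recovered reads on genes were 15.4 M to 28.5 M per library. The codes of old libraries hold 18, while their labels give 20 months, which is used here. Liver Myc itself separated the genotypes at both ages, with 5.46 to 33.7 CPM in WT and 1.16 to 4.04 CPM in KO at 5 months, and 5.36 to 7.61 against 1.13 to 2.92 CPM at 20 months. In fat, Myc separated them at 5 months, with 11.2 to 22.8 CPM in WT and 2.87 to 10.5 CPM in KO. The fat ranges overlapped at 20 months, at 8.10 to 16.3 and 5.14 to 9.715 CPM. Muscle Myc overlapped at both ages. It was 6.145 to 81.3 CPM in WT and 4.998 to 17.1 CPM in KO at 5 months, and 4.97 to 13.1 against 1.746 to 10.2 CPM at 20 months. The 8 hepatocyte markers summed to between 108400 and 221400 CPM in liver libraries, so the tissue matched its label. In liver, 2 of 6 young libraries of each genotype carried Xist, the RNA of the inactive X chromosome (143 to 331 CPM, against 0.297 CPM or less in the others), and had no reads on the Y-linked genes checked. Young fat and muscle held such libraries as well, 2 per genotype, while every 20 month library carried Y transcripts. The labels give no sex. Because many of these enzymes differ between the sexes in mouse liver, the age comparisons are given with all libraries and again without the Xist libraries.

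Xenobiotic metabolism runs in phases. P450 enzymes insert oxygen into a fat-soluble substrate, with electrons supplied by Por, and the transferases then attach glucuronic acid (Ugt), sulfate (Sult) or glutathione (Gst), after which transporters carry the product out of the cell. Hepatocytes are the main site. Transcription of the genes responds to ligand-activated receptors, among them Car (Nr1i3), Pxr (Nr1i2) and the dioxin receptor Ahr, and to Nrf2, the regulator of the electrophile response. In rodent liver a further layer follows growth hormone, whose pulses in males and steadier release in females set sex-biased levels of many Cyp2 and Cyp3 genes through Stat5b, Bcl6 and related factors.

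Several members are near copies of each other. The promoters of the pairs Cyp2a4 with Cyp2a5 and Cyp2b9 with Cyp2b13 are shown, since the partners differed in level between libraries (Cyp2a) or were near 0 in the same young livers and higher in the same old ones (Cyp2b), as the values further on give. Each window runs from 250 bases before to 50 bases after an annotated start, on the plus strand of chromosome 7 in the RefSeq annotation of GRCm38.p6. For Cyp2b9 and Cyp2b13 that start lies inside the gene, downstream of its outer start at 26173350 and 26061388. Capitals mark the bases at which a window differs from its partner.
Cyp2a4, chr7:26306942-26307241: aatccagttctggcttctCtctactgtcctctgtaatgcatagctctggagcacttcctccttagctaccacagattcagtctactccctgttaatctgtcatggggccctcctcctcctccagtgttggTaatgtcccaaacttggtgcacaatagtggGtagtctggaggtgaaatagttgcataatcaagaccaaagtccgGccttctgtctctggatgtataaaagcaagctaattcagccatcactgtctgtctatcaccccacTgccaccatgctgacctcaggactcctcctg
Cyp2a5, chr7:26835089-26835388: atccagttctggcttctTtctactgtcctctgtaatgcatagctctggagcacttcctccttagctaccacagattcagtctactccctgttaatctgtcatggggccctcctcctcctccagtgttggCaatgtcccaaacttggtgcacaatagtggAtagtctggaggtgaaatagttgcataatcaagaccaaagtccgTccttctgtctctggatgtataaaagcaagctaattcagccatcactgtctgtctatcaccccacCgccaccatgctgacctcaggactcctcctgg
Cyp2b9, chr7:26173159-26173458: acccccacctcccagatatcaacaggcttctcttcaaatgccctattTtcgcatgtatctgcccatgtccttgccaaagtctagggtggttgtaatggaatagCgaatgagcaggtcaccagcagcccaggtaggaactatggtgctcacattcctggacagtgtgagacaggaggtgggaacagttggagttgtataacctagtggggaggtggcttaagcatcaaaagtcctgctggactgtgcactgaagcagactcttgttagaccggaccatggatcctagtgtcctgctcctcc
Cyp2b13, chr7:26061245-26061544: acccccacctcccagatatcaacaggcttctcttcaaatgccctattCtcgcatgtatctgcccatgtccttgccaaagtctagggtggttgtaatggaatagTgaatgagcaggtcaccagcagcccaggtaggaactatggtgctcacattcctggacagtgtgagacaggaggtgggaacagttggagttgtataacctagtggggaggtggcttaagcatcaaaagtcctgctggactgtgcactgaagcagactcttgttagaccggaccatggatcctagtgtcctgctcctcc

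Counted from 1 at the 5′ end of the Cyp2a4 window, Cyp2a4 and Cyp2a5 differed by C19T, T131C, G161A, G205T and T270C, with 294 of 299 bases equal when the windows are laid side by side without gaps. Cyp2b9 and Cyp2b13 differed by T48C and C104T, with 298 of 300 equal. A RefSeq promoter was matched for 68 of the 77 members. The Stat5 motif TTCNNNGAA, searched on both strands, was in 3 of these 68 windows (4.41%, in Gsta1, Sult3a1 and Ugt1a6a). It was in 8.47% of 27025 mouse promoter windows of that length, a wider set that did not cover every chromosome. The antioxidant response core TGACNNNGC was in 3 of 68 (Cyp2j6, Gsta3 and Gstm5) and in 12.5% of the wider set. A single window was used per gene, and some lie inside the gene, away from its outer start. The Sult3a1 window begins at 33857472 on chromosome 10, in a plus-strand gene that begins at 33851020. The Cyp2j6 window ends at 96553901 on chromosome 4, in a minus-strand gene that reaches to 96564305. Motifs at the outer starts of such genes were not searched. Neither motif was found in the windows printed above.

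Sequence likeness also bears on how far reads can be assigned. The share of a gene's 75-base windows found in another gene was 86.3% for Gsta1, 57.7% for Gstp1, 57.1% for Cyp2c40, 22.1% for Cyp2a4, 16.7% for Cyp2d9 and 5.2% for Cyp2b9. The 7 Ugt1 members come from a single locus with alternative opening exons and shared later exons, and shared between 36.9% (Ugt1a6a) and 75.4% (Ugt1a6b) of their windows. The levels of such genes are uncertain to the extent that the counting split or dropped shared reads.

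A few enzymes led the set in liver. Per kilobase of exon, mean levels ran from 0.256 CPM per kb for Ugt1a7c up to 2234 CPM per kb for Gstp1, followed by Cyp3a11 (2041), Gstm1 (1125), Cyp2d9 (995), Cyp2d26 (891), Cyp2d10 (788), Gsta3 (711), Ugt2b5 (579) and Ugt1a1 (388). Cyp3a11 is the main inducible drug-oxidising P450 of mouse liver, Gstp1 and Gstm1 join glutathione to electrophiles, and Ugt1a1 glucuronidates bilirubin. Within families, the highest mean liver levels in CPM belonged to Cyp2a12 (647), Cyp2b9 (126), Cyp2c29 (717), Cyp2j5 (596), Sult2a8 (540.1) and Gsta3 (1104). Cyp2b9 barely exceeded Cyp2b10 (125.6). Its mean came from the young Xist livers (283 to 425 CPM) and old livers, as young livers with Y held at most 0.957 CPM. Cyp1b1 (2.24 CPM), Cyp2r1, a vitamin D hydroxylase (10.2 CPM), Cyp2s1 (1.30 CPM) and Cyp2u1 (11.9 CPM) were the sole members of their families and stayed low. All members together took a median of 1.79% of reads in WT and 1.84% in KO liver at 5 months, and 1.96% and 1.94% at 20 months. In fat the group medians lay between 0.185% and 0.32%, and in muscle between 0.051% and 0.056%. Of the 77 members, 70 had their highest tissue mean in liver, 5 in fat (Cyp1b1, Cyp2s1, Gstm2, Sult1e1 and Ugt1a7c) and 2 in muscle (Gstm5 and Gstp2).

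**Figure D1:**
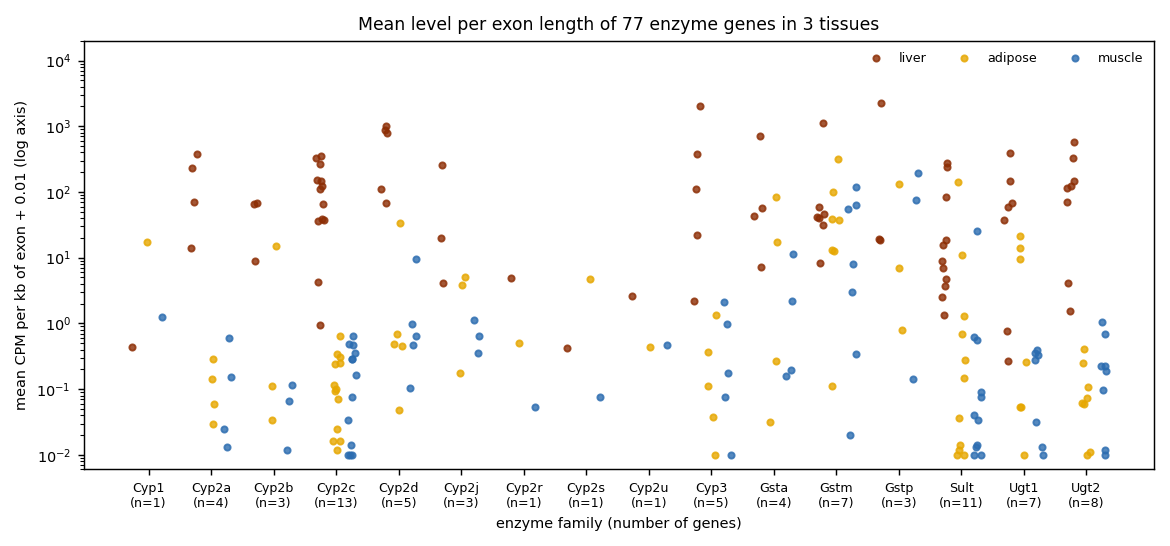
Mean level of each member per kilobase of exon (CPM per kb, log axis) in liver, fat and muscle, arranged by enzyme family, 1 point per gene and tissue. Gstp1, Cyp3a11 and Gstm1 stand highest in liver, and most members are far lower in fat and muscle.

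No enzyme gene was called different between KO and WT liver at either age. Of the 74 members that passed the filter on low values (Cyp3a44, Sult2a1 and Sult2a2 did not), limma called 0 at 5 months and 0 at 20 months at an adjusted p threshold of 0.05, where 0.0696% and 0.0232% of the 12924 genes tested were called. At an unadjusted p under 0.05 there were 0 members at 5 months and 1 at 20 months (Ugt1a10, adjusted p = 0.842 by limma). With so few calls among all genes, the members' count of 0 does not set them apart. edgeR and DESeq2 on the recovered reads also called 0 at both ages. The members' median log2 difference was -0.03 at 5 months and -0.01 at 20 months, beside 0.01 and 0.01 over all genes tested. At 5 months 67 of the 74 log2 estimates lay within 0.5 of 0, and at 20 months 54 did. Their standard errors ran from 0.13 to 1.84 at 5 months, so the data bound some genes tightly and others hardly at all.

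The abundant enzymes show how far a KO effect was bounded. Cyp3a11 in WT liver at 5 months was 4851, 7612, 8549 and 11368 CPM in the libraries with Y transcripts and 2165 and 3037 CPM in the Xist libraries. In KO liver of that age it was 4305, 4312, 4999 and 8045 CPM with Y and 2235 and 2412 CPM with Xist. The genotypes overlapped, and the log2 difference was -0.43 (95% interval -1.18 to 0.33). For Gstm1 the 5 month difference was -0.01 (-0.71 to 0.69), for Gsta3 -0.28 (-1.01 to 0.44), for Ugt1a1 0.30 (-0.17 to 0.77) and for Gstp1 0.40 (-0.84 to 1.64). At 20 months the same 5 genes, Cyp3a11, Gstm1, Gsta3, Ugt1a1 and Gstp1, differed by 0.14, 0.28, 0.14, -0.14 and -0.11 on the log2 scale. A change of 1 log2 unit in either direction lay outside the 5 month interval for Gstm1 and Ugt1a1. A rise of that size was inside it for Gstp1, and a fall of that size was inside it for Cyp3a11 and Gsta3.

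The widest KO estimates came from genes that varied between libraries. At 20 months Cyp2b10, the standard reporter of Car activity, was 1.95, 4.93, 9.96, 19.7 and 52.1 CPM in WT and 29.9, 44.4, 67.8, 76.6 and 92.8 CPM in KO. The upper WT library lay within the KO range, and the log2 difference of 2.34 (SE 1.29, 95% interval -0.33 to 5.01) had an adjusted p of 0.878 by limma. Young livers ranged more widely still, from 1.77 to 455 CPM in WT and from 6.56 to 359 CPM in KO. Ugt2b38, a glucuronosyltransferase of the Ugt2b cluster, had the lowest 20 month estimate, -1.51. Sult1e1, the oestrogen sulfotransferase, had the lowest at 5 months, -0.96, and Cyp2d40 the highest, 0.50. By family, median KO differences ran from -0.40 (Cyp3, 4 genes) to 0.46 (Cyp2u, 1 gene) at 5 months and from -0.36 (Cyp2u) to 1.02 (Cyp2b, 3 genes) at 20 months. The KO difference at 20 months was also set directly against that at 5 months: limma, edgeR and DESeq2 each called 0 members, limma found 0 members with an unadjusted p under 0.05, and 0% of all genes tested were called by limma.

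**Figure D2:**
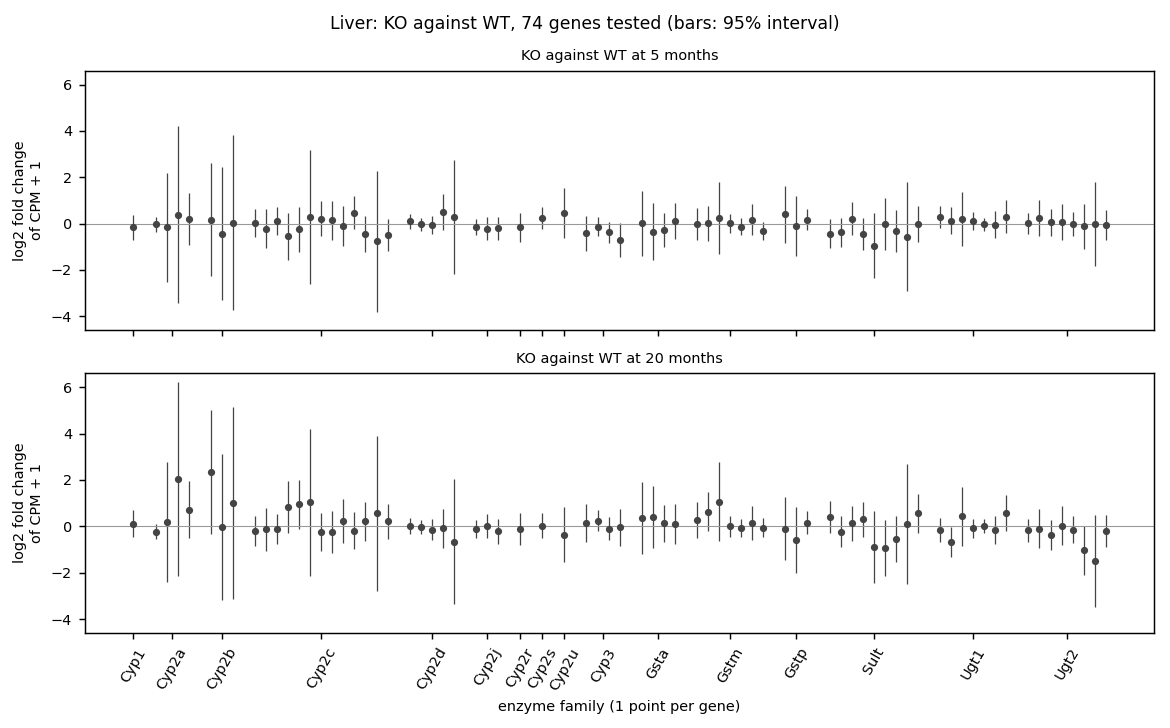
KO against WT log2 difference in liver for the 74 members tested, by family, at 5 and 20 months, as points with 95% intervals from limma. Points gather around 0 at both ages, with Cyp2b10 (2.34) and Ugt2b38 (-1.51) farthest out at 20 months.

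Leaving out the Xist libraries left 4 young livers per genotype and changed none of these calls. limma again called 0 members at 5 and at 20 months, beside 0.00774% and 0.0464% of all genes. Unadjusted p-values under 0.05 were reached by 4 members at 5 months, Cyp2c37 (log2 difference 0.62), Cyp2c38 (-0.74), Cyp2d10 (0.36) and Ugt1a1 (0.52), with adjusted p from 0.908 to 0.916 by limma. At 20 months 6 reached it, Cyp2a4 (2.04), Cyp2c38 (0.83), Cyp2c39 (0.96), Cyp2d9 (-0.67), Ugt1a10 (-0.66) and Ugt2b38 (-1.51), with adjusted p from 0.575 to 0.719 by limma.

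Part of the members were ordered by Xist in young liver, and orders by genotype were not counted. In 12 of the 77 members (15.6%) all 4 Xist libraries lay above all 8 young libraries with Y transcripts, a pattern held by 1.3% of the 12419 genes with a liver mean above 1 CPM. These were Cyp2a4, Cyp2a22, Cyp2b9, Cyp2b13, Cyp2c38, Cyp2c40, Cyp2c69, Cyp3a44, Sult2a1, Sult2a2, Sult3a1 and Ugt1a5. Of these, Cyp3a44, Sult2a1, Sult2a2 and Sult3a1 reached at most 1.08 CPM in any liver library with Y transcripts, young or old. They passed the level of 1 CPM only through the Xist libraries, so the rule for members itself favoured this order for them. The same rule on level applied to the 12419 genes. In 9 members (11.7%) the Xist libraries lay below all the others, against 1.39% of genes: Cyp2d9, Cyp2u1, Cyp3a11, Gstp1, Ugt2a3, Ugt2b1, Ugt2b5, Ugt2b35 and Ugt2b38. The second group held 5 of the 8 Ugt2 members, and the first 2 of the 4 Cyp2a and 2 of the 3 Cyp2b members. These counts describe 4 libraries against 8 and were given no test.

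Among the members higher with Xist, the size of the gap was large. Cyp2a4, a testosterone hydroxylase, was 0, 0.238, 0.333 and 0.665 CPM in young WT livers with Y and 353 and 619 CPM with Xist; in KO it was 0.087, 0.289, 0.595 and 1.37 CPM against 532 and 1053 CPM. Its near copy Cyp2a5, the coumarin hydroxylase, did not follow: WT livers with Y held 119, 367, 1161 and 1427 CPM and those with Xist 226 and 257 CPM, and KO livers 334, 470.1, 660.3 and 831 against 225 and 506 CPM. The pair whose promoters differ at 5 of 299 bases thus differed in pattern across the same livers. Cyp2b9 was 0 to 0.25 CPM in young WT livers with Y against 393 and 404 CPM with Xist, and 0 to 0.957 against 283 and 425 CPM in KO. Cyp2b13 was at 0 in all 8 young libraries with Y and at 101.1 and 116 CPM (WT) and 28.3 and 63.6 CPM (KO) with Xist. Cyp3a44, which did not pass the filter, reached at most 0.148 CPM with Y and was 12.9 and 46.3 CPM (WT) and 13.3 and 22.3 CPM (KO) with Xist. Sult3a1 was at 0 in the 8 libraries with Y and between 25.01 and 99.7 CPM with Xist. Sult2a1, which sulfates bile acids and steroids, had no more than 0.238 CPM with Y and between 2.61 and 244 CPM with Xist.

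Members lower with Xist included some of the most abundant enzymes. Cyp2d9, a male-biased testosterone hydroxylase, was 1615, 2165, 3254 and 3402 CPM in young WT livers with Y and 46.6 and 84.7 CPM with Xist. In KO the values were 3224, 3497, 4242 and 4378 CPM against 34.1 and 72.9 CPM. Gstp1 was 2213, 2528, 2915 and 5837 CPM against 294 and 517 CPM in WT, and 2785, 3199.5, 4065 and 4658 CPM against 619 and 737 CPM in KO. In both genes the Xist and Y ranges were far apart in each genotype. Ugt2b38 lay between 9.96 and 25.3 CPM with Y and between 0.113 and 0.584 CPM with Xist. Cyp2d10, of the same family as Cyp2d9, overlapped, with 1267 to 2193 CPM with Y and 1082 to 1597 CPM with Xist.

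**Figure D3:**
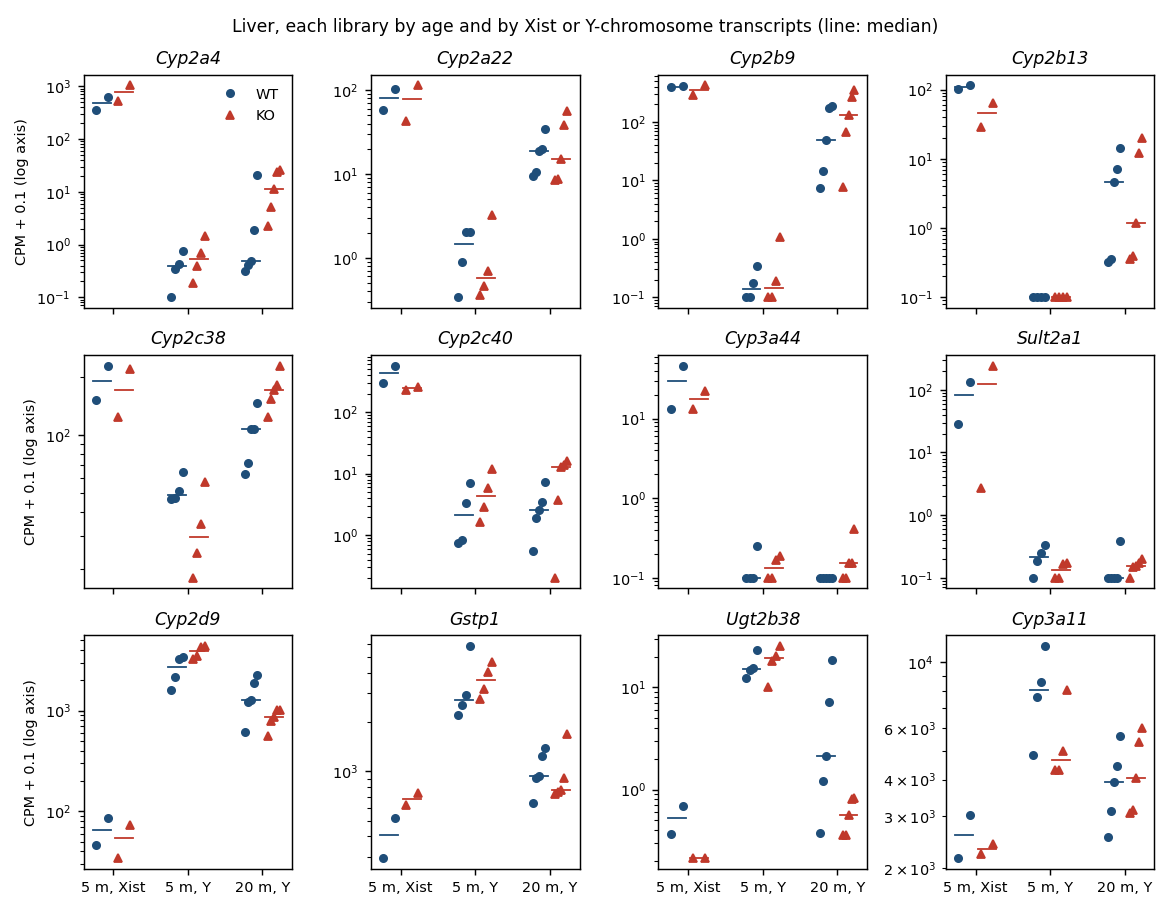
Level of 12 members in each liver library (CPM + 0.1, log axis), in columns for 5 months with Xist, 5 months with Y transcripts and 20 months, with WT as circles and KO as triangles. The old livers of Cyp2b9 and Cyp2a22 all lie above the young livers with Y, those of Gstp1 all lie below them, and Cyp3a44 and Sult2a1 remain near 0.

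With all libraries in the fit, few members changed with age in liver. In WT, limma called 3 of 74, against 7.19% of all genes tested, or 2.83% higher and 4.36% lower. Sult2a7, a hydroxysteroid sulfotransferase, was 0.159, 0.369, 1.25 and 1.59 CPM in young WT livers with Y, 0.882 and 1.17 CPM with Xist, and 4.14, 4.55, 7.87, 25.4 and 31.9 CPM at 20 months. All old WT livers exceeded all young ones, with a log2 rise of 2.68 (SE 0.56, adjusted p = 0.00627 by limma). Sult5a1 fell from 11.7, 12.5, 13.7 and 34.5 CPM with Y and 17.3 and 22.6 CPM with Xist to 2.51, 3.85, 6.28, 9.55 and 11.1 CPM (log2 -1.41, SE 0.39, adjusted p = 0.03 by limma). Cyp3a13 fell from 252 to 586 CPM in the 6 young livers to 189, 229, 256, 256 and 259.9 CPM, with overlap (log2 -0.72, SE 0.21, adjusted p = 0.0385 by limma).

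The Sult2a7 call held when any single WT liver was left out. The Sult5a1 call was lost without any 1 of W18L02, W18L03, W18L05, W5L5005, W5L5041 and W5L5042, and the Cyp3a13 call in 8 of 11 such fits, so the WT count was 1 without W18L02, W18L05, W5L5041 or W5L5042 and 5 without W5L5277 or W5L5299. In KO, limma called 0 of 74 members with age, with 10 at an unadjusted p under 0.05, against 2.99% of all genes; edgeR called 1 and DESeq2 4.

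Without the Xist libraries more members were called with age, in both directions. limma then called 6 of 74 members in WT, against 3.2% of all genes (1.4% higher, 1.8% lower), and 10 in KO, against 4.39% (2.37% higher, 2.02% lower). Cyp2a22, Cyp2b9, Gstp1, Sult5a1 and Ugt2b38 were called in both genotypes. The same direction in WT and KO was seen for 57 of 74 members (77%), 28 up and 29 down, beside 72.1% of all 12924 genes. The median change was 0.01 in WT and -0.07 in KO, beside -0.01 and -0.02 over all genes, so the members moved to both sides rather than together. The 2 age comparisons share no libraries.

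Cyp2b9 showed the widest rise. From at most 0.25 CPM in young WT livers with Y it reached 7.40, 14.5, 49.2, 176 and 188 CPM at 20 months (log2 5.43, SE 0.94, adjusted p = 0.00396 by limma). In KO the old livers held 7.67, 67.0, 131, 267 and 352 CPM (log2 6.28, adjusted p = 0.00138 by limma). All 10 old livers exceeded all 8 young livers with Y, and the highest of them, at 352 CPM, lay within the 283 to 425 CPM of the young Xist livers. Cyp2b13 also exceeded all young livers with Y in all 10 old ones, at 0.222, 0.260, 4.56, 6.98 and 14.1 CPM in WT and 0.256, 0.291, 1.07, 12.01 and 19.7 CPM in KO, but it was not called (log2 2.002 and 1.96, adjusted p = 0.183 and 0.157 by limma). Those young livers were all at 0 for Cyp2b13, so the fitted changes depend on the added constant of 1 CPM and are no bound.

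Cyp2a22 moved in the same way. Young livers with Y held 0.238, 0.794, 1.92 and 1.92 CPM in WT and 0.260, 0.361, 0.595 and 3.15 CPM in KO. Old livers held 9.32, 10.6, 18.9, 20.0 and 34.1 CPM in WT and 8.31, 8.70, 15.1, 38.0 and 56.1 CPM in KO, above every young liver with Y (log2 3.09, SE 0.52, adjusted p = 0.00341 in WT and 3.45, adjusted p = 0.00145 in KO, by limma). Cyp2a4 rose in KO, to 2.11, 5.06, 11.3, 23.8 and 26.0 CPM (log2 2.85, SE 0.72, adjusted p = 0.0329 by limma), while old WT livers were 0.222, 0.308, 0.390, 1.79 and 20.3 CPM (log2 1.04, not called, adjusted p = 0.459 by limma). Cyp2c38 rose in KO from 17.99, 24.3, 34.4 and 56.8 CPM to 124, 154, 172, 182 and 229.7 CPM (log2 2.43, SE 0.28, adjusted p = 0.000155 by limma). In WT it was 46.3, 46.9, 50.9 and 64.4 CPM young and 62.4, 71.7, 107, 107 and 146 CPM old, which was not called (log2 0.86, adjusted p = 0.102 by limma). The age effects of Cyp2c38 in KO and WT differed by 1.57 (SE 0.39, unadjusted p = 0.000825), which did not pass adjustment over all genes (adjusted p = 0.999 by limma). The same test gave -1.28 for Cyp2d9, with the same adjusted p, and no member was called different in its age effect between the genotypes.

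Gstp1 gave the most stable fall. Old WT livers held 642, 908, 939, 1247 and 1389.9 CPM and old KO livers 724, 750.2, 768, 908 and 1699 CPM, all below the 8 young livers with Y, whose lowest was 2213 CPM. The log2 fall was -1.66 (SE 0.30, adjusted p = 0.00522 by limma) in WT and -1.98 (adjusted p = 0.00146) in KO. Cyp2d9 fell in KO from between 3224 and 4378 CPM to 556, 796, 871, 1011 and 1019 CPM (log2 -2.19, SE 0.31, adjusted p = 0.00088 by limma); in WT it was 615, 1215, 1287, 1859 and 2240.3 CPM at 20 months, and the estimate of -0.92 was not called (adjusted p = 0.113). Ugt2b38 was 12.2, 14.7, 15.3 and 23.04 CPM in young WT livers with Y and 0.279, 1.11, 2.04, 7.09 and 18.2 CPM in old ones, with 1 old liver inside the young range (log2 -2.01, SE 0.54, adjusted p = 0.0468 by limma). In KO it was 9.96, 17.8, 20.4 and 25.3 CPM young and at most 0.729 CPM old (log2 -3.65, adjusted p = 0.00127 by limma). Smaller falls were called in KO for Cyp2d10 (-0.76, SE 0.14, adjusted p = 0.00571 by limma) and Ugt2a3 (-0.68, SE 0.17, adjusted p = 0.0353). Cyp3a11 had an estimate of -1.03 in WT that was not called (adjusted p = 0.0613 by limma).

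A fit of all liver libraries with a term for Xist called 11 members with age in WT, against 6.41% of all genes, and 10 in KO, against 3.9%. In WT it called 5 members that the fit without the Xist libraries did not: Cyp2c38 rose (0.95, adjusted p = 0.0395 by limma), and Cyp3a11 (-0.96, adjusted p = 0.0344), Cyp2d9 (-1.07, adjusted p = 0.0467), Cyp2d10 (-0.53, adjusted p = 0.0439) and Sult1d1 (-1.21, adjusted p = 0.0499) fell. In KO it called Ugt2b1 (-0.89, adjusted p = 0.0499 by limma) and did not call Sult5a1.

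Sulfotransferases went both ways without the Xist libraries. Sult2a7 rose in WT (2.75, SE 0.68, adjusted p = 0.032 by limma) and was 0.972, 1.74, 4.15, 9.04 and 30.1 CPM in old KO livers, where it was not called (1.85, adjusted p = 0.116). Sult5a1 fell in both, by -1.32 in WT (SE 0.35, adjusted p = 0.0443 by limma) and -1.35 in KO (adjusted p = 0.0357), and old KO livers held 8.68, 9.11, 9.30, 9.30 and 10.03 CPM. Over the 9 fits that each left out 1 further library, Cyp2a22, Cyp2b9 and Gstp1 stayed called in 9 of 9 in both genotypes, and Cyp2c38, Cyp2d9, Cyp2d10 and Ugt2b38 in 9 of 9 in KO. The other calls were less steady: in WT Sult2a7 and Sult5a1 were called in 3 of 9 and Ugt2b38 in 2, and in KO Cyp2a4 in 3, Sult5a1 in 2 and Ugt2a3 in 1. The WT count was 3 without W18L02 or W5L5299.

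By rank alone, 3 members had all old livers above all young livers with Y in both genotypes (Cyp2a22, Cyp2b9 and Cyp2b13), where 0.929% of genes did, and 2 had all old below (Gstp1 and Sult5a1), where 1.07% did. Some members with a wide Xist gap did not move this way. Cyp3a44 was at 0 in all 5 old WT livers and at most 0.307 CPM in old KO livers, Sult2a1 reached at most 0.279 CPM, and Sult3a1 at most 1.08 CPM. Cyp2c40 stayed between 0.102 and 16.1 CPM in old livers, against 230.4 to 575 CPM in the young Xist livers. So some members with a wide Xist gap were called with age, while Sult3a1 and Cyp2c40 were not called and Cyp3a44 and Sult2a1 did not pass the filter.

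Cell markers were set beside these changes. The hepatocyte sum was 120100 to 221400 CPM in young and 109700 to 132500 CPM in old WT liver, and 108400 to 179100 against 117300 to 140000 CPM in KO. The Kupffer cell and macrophage sum was 141 to 438 CPM in young and 137 to 227 CPM in old WT liver, and 298 to 513 against 169 to 253 CPM in KO, where the ages did not overlap. The sinusoidal endothelium sum was 178.6 to 293 CPM in young and 133 to 208 CPM in old WT liver, and 199.6 to 359 against 147 to 193 CPM in KO, again without overlap in KO. The part of these markers in the age changes was not tested. In bulk tissue, fewer cells of a type and less RNA per cell cannot be told apart.

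**Figure D4:**
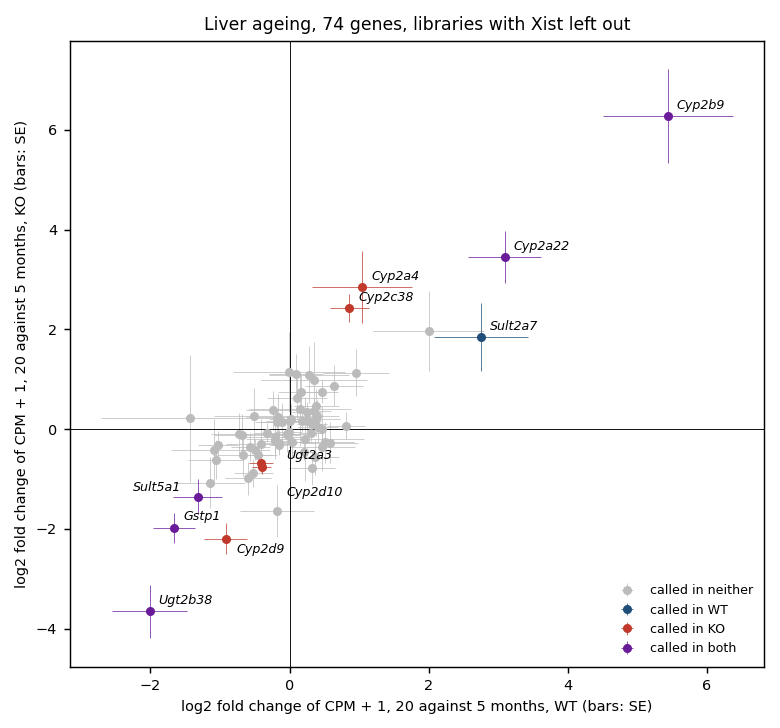
Age change (20 against 5 months, log2) in KO against that in WT liver for the 74 members, Xist libraries left out, coloured by whether limma called the gene. Cyp2b9 and Cyp2a22 lie far up on both axes and Gstp1 and Ugt2b38 far down on both.

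Members without an order by Xist or age often varied widely within a group. Cyp2c29, the most abundant Cyp2c member, was 297, 477, 1083 and 2569 CPM in young WT livers with Y, 441 and 783 CPM with Xist, and 345, 593, 678, 701 and 764 CPM in old WT livers. In KO it was 284, 591, 768 and 1553 CPM, 424 and 652 CPM, and 443, 471, 501, 573 and 794 CPM. The old livers lay inside the young range in both genotypes, and the age estimates of -0.27 and -0.18 were not called (adjusted p = 0.728 and 0.851 by limma). Gsta3 was 431, 719.6, 1537 and 2726 CPM in young WT livers with Y and 704, 1147, 1203, 1261 and 1632 CPM in old ones (log2 with all libraries 0.30, 95% interval -0.47 to 1.06). Gstm1 was 743, 1433, 1780.4 and 2915 CPM in young WT livers with Y and 908, 927, 1283, 1798 and 2955 CPM in old ones (0.13, -0.61 to 0.86). Neither glutathione transferase was called, and both spanned a wide range at either age.

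The genes known best as induced by foreign compounds gave no call in the fit of the group means over all liver libraries, and Cyp3a11 was called lower with age in WT once a term for Xist was added, as given above. Cyp1b1, Cyp2b10, Cyp2c55, Cyp3a11, Ugt1a1, Gsta1 and Gstm3 stand for Ahr, Car, Pxr and Nrf2 responses. Gstm3 had wide spread, at 36.6 ± 62.4 CPM in young WT (SD, n = 6), 19.2 ± 10.04 in young KO (n = 6), 48.4 ± 72.7 in old WT (n = 5) and 64.2 ± 45.5 in old KO (n = 5). A single library in each WT group set that spread, at 162 CPM among the young and 178 CPM among the old. Mean Gsta1 was 4.44 and 2.89 CPM in young WT and KO and 10.03 and 8.98 CPM in old WT and KO. The young means include the Xist livers, at 0.265 to 1.41 CPM. Young livers with Y held 0.795 to 17.4 CPM and old livers 0.910 to 34.3 CPM. Cyp2c55 stayed between group means of 1.41 and 2.59 CPM, and Cyp1b1 between 1.94 and 2.48 CPM. Ugt1a1 in old KO livers was 561, 616, 638, 788 and 814 CPM, against 802 to 1535 CPM in young KO with the Xist livers included. The log2 difference of -0.61 was not called (adjusted p = 0.166 by limma). Over both genotypes, young livers held 1076 to 1542 CPM with Xist and 475 to 1163 CPM with Y. The mean log2 difference of old livers from young livers with Y was -0.12. Cyp2b10 in WT had an age estimate of -2.68 with all libraries, also not called (adjusted p = 0.175 by limma). Over both genotypes it was 149 to 455 CPM in young livers with Xist and 1.77 to 339 CPM in those with Y. Old livers held 1.95 to 92.8 CPM, and their mean log2 difference from the young livers with Y was -0.61. Ugt1a1, Gsta1 and Cyp2b10 were not called with age in either genotype without the Xist libraries.

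Other genes of the pathway showed the same lack of KO calls in liver, with 0 in any list at either age. Their age calls stand beside 7.19% of all genes in WT and 2.99% in KO, or 3.2% and 4.39% without the Xist libraries. Among 20 regulators tested of 21 listed, Bcl6, a repressor active in male liver, rose with age in WT (log2 1.91, adjusted p = 0.00758 by limma), as did Hlf (0.74, adjusted p = 0.00593), while Hnf4a fell (-0.60, adjusted p = 0.0142); in KO 0 were called. The same 3 genes were called in WT without the Xist libraries, and again 0 in KO. Bcl6 was 11.1 ± 4.69 CPM in young (SD, n = 6) and 48.3 ± 24.8 CPM in old WT liver (n = 5). Of the 7 P450 electron partners and related genes, Por, which feeds electrons to every microsomal P450, fell in WT (-1.73, adjusted p = 0.00493 by limma) and in KO (-1.34, adjusted p = 0.0394). Its level was 1673 ± 724 CPM in young (SD, n = 6) and 489 ± 205 CPM in old WT liver (n = 5), and 1480 ± 628 and 564 ± 211 CPM in KO. Without the Xist libraries Por was no longer called in either genotype, and Hmox1, which breaks down haem, fell in WT in both fits (-0.99 and -1.39, adjusted p = 0.0328 and 0.00214 by limma). Of 50 other metabolism enzymes tested of 51, 4 rose with age in WT (Ces2e, Ugt3a1, Aldh1a1 and Aldh1a7) and 4 fell (Ces2a, Gsto1, Nnmt and Gsr), and in KO Mgst3 and Aldh1a7 rose and Ces2a fell. Without the Xist libraries 0 rose and 3 fell in WT (Ces2a, Nnmt and Gsr), so the 4 WT rises were lost, and in KO Mgst3 rose and 6 fell (Ces2a, Ces3a, Ces3b, Gsto1, Gsr and Cyp1a2). Among 14 transporters, Abcc3, an exporter of conjugates, fell in WT (-0.53) with all libraries, and 0 transporters were called without the Xist libraries. Of 10 male-biased liver genes that are no members, 0 were called with age with all libraries, and without the Xist libraries 2 fell in WT (Cyp4a12b and C6) and 4 in KO (Mup20, Cyp7b1, Cyp4a12b and C6). Of 9 female-biased genes tested of 11, Slc22a26 rose in WT and Abcd2 and Slc22a26 rose in KO in that fit.

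Omental fat expressed a smaller set of these enzymes. A level above 1 CPM was reached by 28 of the 77 members and 29 passed the filter, led in mean CPM by Gstm1 (438), Sult1a1, a phenol sulfotransferase (207), and Gsta3 (129). 4 young fat libraries carried markers of epididymis (KO K5F4284, K5F5218 and K5F5248 and WT W5F5299, with marker sums of 6250, 957, 4020 and 920.0 CPM). Gstm7 was higher in those libraries, at 441.8, 131.9, 462.8 and 68.06 CPM in the same order, and at most 15.2 CPM in the other young ones. Between KO and WT, limma called 0 of 29 members at 5 months and 0 at 20 months, with 3 and 0 at an unadjusted p under 0.05, against 0.105% and 0% of 14286 genes. edgeR called 0 at both ages, and DESeq2 2 at 5 months and 0 at 20 months.

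With age, alpha-class glutathione transferases fell in the fat of both genotypes. In WT 6 of 29 members were called (10.8% of all genes, 7.41% higher and 3.36% lower), and in KO 8 (14.2%, 10.5% higher and 3.75% lower). Gsta3 in WT ran from 109 through a median of 151 to 396 CPM at 5 months and was 24.9, 33.2, 35.4, 37.8 and 59.1 CPM at 20 months, without overlap (log2 -2.20, SE 0.41, adjusted p = 0.00236 by limma). In KO it ran from 70.0 through 212 to 325 CPM and was 28.3, 36.4, 46.2, 81.4 and 98.6 CPM, with some overlap (log2 -1.72, adjusted p = 0.0102 by limma). Gsta4, which conjugates lipid peroxidation products, fell from 12.5 to 34.7 CPM to 5.57 to 11.1 CPM in WT (-1.48, adjusted p = 0.00515 by limma) and from 15.0 to 41.1 CPM to 5.19 to 14.8 CPM in KO (-1.20, adjusted p = 0.0159). In neither genotype did its young and old ranges overlap. Markers of T and B cells summed to 3.51 to 14.5 CPM in young and 20.53 to 117 CPM in old WT fat, and to 7.98 to 12.6 against 16.6 to 28.7 CPM in KO, without overlap in either, and their part in the age changes was not tested. In liver, Gsta3 and Gsta4 were not called with age in either genotype, with or without the Xist libraries.

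Gstm5, a mu-class enzyme, fell by -1.20 in WT (adjusted p = 0.0466 by limma) and -1.92 in KO (adjusted p = 0.00385), and Sult5a1 by -0.95 (adjusted p = 0.0461) and -1.39 (adjusted p = 0.00638). The WT calls of both were lost when 1 of most of the WT libraries was left out, which gave 4 to 7 members called. Gstm2 fell in KO (-0.95, adjusted p = 0.0195 by limma), and without the epididymis-marked libraries was not called (-0.55, adjusted p = 0.109). Cyp2u1, a fatty acid hydroxylase, rose from 0.795 to 2.12 CPM to 2.65, 2.69, 2.77, 3.27 and 4.28 CPM in WT (0.74, adjusted p = 0.0124 by limma) and from 0.449 to 1.96 CPM to 2.24, 2.42, 2.51, 2.53 and 2.75 CPM in KO (0.81, adjusted p = 0.00654). Old and young did not overlap in either genotype. Cyp2j9 rose in KO (0.45, adjusted p = 0.032 by limma). Cyp2c70, the muricholic acid enzyme, was called higher in both (0.92 and 0.95, adjusted p = 0.00543 and 0.00411 by limma) at a level of at most 1.72 CPM. Hepatocyte markers summed to between 2.71 and 744 CPM in fat libraries, and their part in the Cyp2c70 change was not tested. Without the 4 epididymis-marked libraries Gsta3 kept its fall (-2.335 in WT and -2.21 in KO), 8 members were called in each genotype, and the KO calls of Cyp2u1 (adjusted p = 0.0551 by limma) and Cyp2j9 (0.0798) were lost. That fit kept 3 young KO libraries, of which 2 carry Xist, so only 1 young KO library was free of both, with 324.6 CPM of Gsta3 and 15.01 CPM of Gsta4 against at most 98.6 and 14.8 CPM in old KO fat. The KO age calls in fat therefore rest on no set of replicates free of both. In WT 3 young libraries were free of both, with Gsta3 from 129 to 396 CPM and Gsta4 from 18.4 to 34.7 CPM, above all old WT fat. The KO count was 5 without K18F26 or K18F30.

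Young fat libraries with Xist also stood apart for some members. Sult1a1 was 558 and 574 CPM in the WT libraries with Xist and 83.5, 135, 167 and 193 CPM in those with Y, and 410.4 and 609.9 against 45.4, 82.3, 112 and 136 CPM in KO. Without the Xist libraries, 4 members were called with age in WT (Gsta3, Gsta4, Cyp2u1 and Cyp2c70), against 5.17% of all genes, and 14 in KO, against 21.2%. The added KO calls included Gstm7 (log2 -4.42, adjusted p = 0.00907 by limma) and Gstm6 (-2.69, adjusted p = 0.0212), in a fit that still held the epididymis-marked libraries, as well as Sult1e1 (-1.57, adjusted p = 0.0162). That fit gave the sole KO against WT call of any member by limma in fat, Ugt1a6b at 5 months, against 3.72% of all genes. Ugt1a6b, which glucuronidates phenols, was 28.98, 31.6, 32.1 and 40.5 CPM in young KO fat with Y and 52.9, 57.9, 73.6 and 82.3 CPM in young WT fat with Y, without overlap (log2 -0.97, SE 0.21, adjusted p = 0.0251 by limma). Epididymis markers were carried by 3 of these 4 KO libraries and 1 of these 4 WT libraries, and their part in the difference was not tested. The Xist libraries lay the other way, at 36.5 and 109 CPM in KO and 24.4 and 24.9 CPM in WT.

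**Figure D5:**
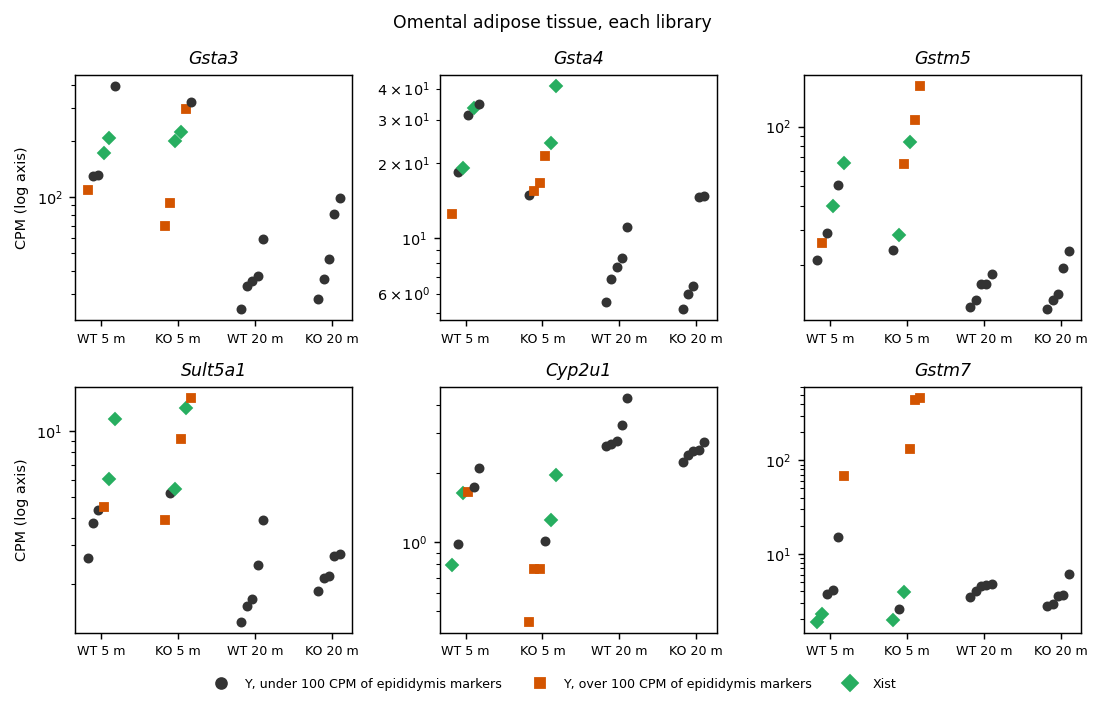
Level of 6 members in each omental fat library (CPM, log axis) by genotype and age, with the libraries carrying epididymis markers as orange squares and those with Xist as green diamonds. Gsta3 and Gsta4 are lower in old fat in both genotypes, and high Gstm7 is seen in the libraries with epididymis markers.

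Skeletal muscle held the least. A mean above 1 CPM was reached by 25 members, or by 17 without the hepatocyte-marked library described next, and 18 passed the filter, led in mean CPM by Gstm1 (164), Gstp1 (162) and Gstm2 (65.8). The old WT library W18S42 had a hepatocyte marker sum of 2839 CPM, and its Cyp3a11 of 97.5 CPM and Cyp2d9 of 14.5 CPM stood beside at most 0.271 CPM of Cyp3a11 and 0.0676 CPM of Cyp2d9 in the other 4 libraries of that group. Between KO and WT, limma called 0 of 18 members at each age, with 1 and 4 at an unadjusted p under 0.05, against 0% and 0.0302% of 13237 genes, and edgeR and DESeq2 called 0.

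The young WT library W5S5299 carried epididymis markers at 126.4 CPM, with 10.4 CPM of Gstm7, the highest in muscle. With age 5 of 18 members were called in WT muscle, against 18.6% of all genes (10.9% higher, 7.68% lower). Cyp2d22 fell from 21.3 through a median of 24.8 to 43.1 CPM to 15.6, 16.5, 17.8, 18.8 and 21.3 CPM (log2 -0.59, adjusted p = 0.0159 by limma). Cyp1b1, which oxidises oestradiol and polycyclic hydrocarbons, fell from 2.42 through 6.96 to 11.6 CPM to 1.45, 2.61, 2.99, 3.48 and 4.60 CPM, with overlap (-0.98, adjusted p = 0.0237 by limma). Ugt1a7c (-1.07, adjusted p = 0.0239 by limma) and Sult5a1 (-0.89, adjusted p = 0.0273) also fell, and Cyp2u1 rose from 0.480 through 0.935 to 2.76 CPM to 2.24, 2.37, 2.55, 3.35 and 3.5 CPM (0.78, adjusted p = 0.0344). Without the Xist libraries 4 members were called in WT, against 7.08% of all genes: Cyp2d22, Sult5a1 and Ugt1a7c again fell, and Gstm2 rose (0.63, adjusted p = 0.0301 by limma). Gstm2 was 94.99 to 103.5 CPM in the 4 young muscle libraries with Xist and 32.2 to 54.2 CPM in the 6 with Y. With all libraries, the Cyp2d22 call held in every fit that left out 1 WT library and the other 4 calls did not; the WT count was 1 without W18S42 or W5S5004 8 without W5S5277, and 6 without the epididymis-marked W5S5299. In KO muscle limma called 0 of 18, with 4 at an unadjusted p under 0.05, against 5.57% of all genes; edgeR called 0 and DESeq2 1. Without the Xist libraries limma called 0 in KO muscle, with 4 at an unadjusted p under 0.05, against 2.08% of all genes. With all libraries Sult5a1 was called lower with age in WT in all 3 tissues and in KO in fat. The WT calls of Sult5a1 were lost in 11 of 20 alternatives in fat, the fit without the Xist libraries among them, and in 7 of 19 in liver and 7 of 19 in muscle. Its KO call in liver appeared without the Xist libraries.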

How the data were processed

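Poly-A RNA libraries, made with a directional kit per the labels' protocols, were measured in 64 samples. The submitters' processing notes name the builds GRCm38.p6 and mm10; the aligner and the strand used in counting are not given in the sources used here. The authors deposited 1 table of normalized signal values per gene, headed CPM per the file headers. Its columns sum to between 0.529 M and 1.64 M, so they are not CPM in the strict sense; all values were whole multiples of 1 read per library, so reads were recovered (100% whole within a tolerance of 0.1) and served for count tests. In liver the sums were 1.358 M to 1.60 M in young libraries with Y transcripts and 1.184 M to 1.38 M in old ones. Young livers with Xist summed to 1.215 M to 1.64 M. The part of this scale in the age differences without the Xist libraries was not tested. Of the gene IDs, 996 had no symbol.

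Each tissue was fitted with limma 3.58.1 (R 4.3.3) on log2(CPM + 1), which understates the change of low genes, with an intensity trend and 1 mean per genotype and age. Genes needed more than 1 CPM in at least 5 libraries (4 in muscle), and p-values were adjusted by Benjamini-Hochberg over all genes tested. Intervals are 95% from the moderated variance. Alternatives were edgeR 4.0.16 and DESeq2 1.42.0 on recovered reads, a pseudocount of 0.1, no filter, TMM scaling, a term for Xist, Xist libraries left out, only the groups compared, and leave-one-out. Leaving out the epididymis-marked libraries, and leaving out single libraries after removal of the Xist libraries, were chosen after seeing the data. The fit was also run on simulated liver counts with planted age changes in WT. Those counts had the same spread setting for every gene and no Xist difference. That run therefore does not show how the fit behaves on members that vary widely within a group.

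Libraries of a group carry different codes, but no label states that each is a separate mouse, so p-values measure the spread between these samples. Named by rule are the top member of each family, members called in a liver comparison, the inducible genes, in fat and muscle the top 3 members and the 3 widest calls, and the genes nearest 1 CPM; others were singled out after their values were seen. Members and lists were chosen with earlier results of these data known.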

Additional observations from a re-analysis of the deposited data

Results flagged for a closer look

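In 188 checks, each of 1 member in 1 group of 4 to 6 libraries, 5 values stood farther from the rest than Dixon's 95% limit allows. Chance alone flags about 1 in 20 checks. In old WT liver the library W18L03 held 20.32 CPM of Cyp2a4, against 0.222 to 1.79 CPM in the other 4. The same library held 178.1 CPM of Gstm3, against 9.88 to 22.9 CPM. In old KO liver K18L08 held 1699 CPM of Gstp1, against 724 to 908 CPM. In young KO liver K5L5218 held 836.2 CPM of Cyp2a12, against 525.6 to 621 CPM. In young KO fat K5F5118 held 0.2164 CPM of Cyp2c70, against at most 0.0363 CPM.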

How the results depend on the processing

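In 41 gene comparisons under 793 alternative values, 643 kept direction and side of the threshold, 93 fell short of it, 35 newly passed it and 22 turned direction; the cause was not tested. KO against WT stayed at 0 members called in liver under every alternative run, and in fat at 5 months became 2 with DESeq2 and 1 without the Xist libraries (Ugt1a6b). For age in WT liver the count of 3 became 1 without the filter, 8 with DESeq2, 11 with the Xist term, 6 without the Xist libraries and 1 to 5 leaving out single libraries. For KO liver the count of 0 became 1 with edgeR, 4 with DESeq2, 10 with the Xist term, 10 without the Xist libraries and 0 to 2 leaving out single libraries. With the Xist libraries out, leaving out a further library gave 3 to 6 in WT and 7 to 11 in KO. In KO fat the count of 8 became 14 without the Xist libraries and 5 to 10 leaving out single libraries. In WT muscle the count of 5 became 2 without the filter, 8 with DESeq2, 0 with only the groups compared and 1 to 8 leaving out single libraries. In KO muscle the count of 0 became 1 with DESeq2, 1 with the Xist term and 4 with only the groups compared.

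Turned directions were all age changes in liver, on the log2 scale. They are set against the limma fit of all libraries, where Cyp2b9 in WT was 2.59, and not against the fit without the Xist libraries. edgeR and DESeq2 were run with all libraries only, so the calls made without the Xist libraries were not repeated with them. In WT, Cyp2a22 was -0.50 with edgeR and -0.53 with DESeq2, Cyp2b9 -0.56 and -0.58, and Cyp2d9 -0.26 and -0.28; Cyp2d9 was also -1.07 with the Xist term and -0.92 without the Xist libraries. In KO, Cyp2a22 was -0.06 and -0.068 with edgeR and DESeq2. In KO, Cyp2a4 was 0.71 with a pseudocount of 0.1, 2.78 with the Xist term, 2.85 without the Xist libraries and -0.83 to 1.16 leaving out single libraries, and Cyp2d9 was -1.06 to 0.34 leaving out single libraries. No paired analysis was possible because the genotypes and ages compared within a tissue share no mouse numbers. Low members such as Cyp2b13 in young livers with Y, at 0 reads, are limited by depth.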
